A study of Mus musculus with 8 samples.

Results

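The hypoxia-inducible factor (HIF) pathway is described here in CD8+ T cells through 10 genes, of which 5 encode HIF-1α and its negative regulators (*Hif1a*, *Vhl*, *Egln1*, *Egln2* and *Egln3*) and 5 are classic HIF targets outside glycolysis (*Ndrg1*, *Bnip3*, *Bnip3l*, *Vegfa* and *P4ha1*). They were selected by symbol, matched to Ensembl identifiers (GRCm38, Ensembl 96), with their differences between GC7- and mock-treated cells already known, so these differences are given as a description without p-values. All 10 passed the filter on low counts in all 8 libraries, and they are 10 of 11189 genes tested, of 55536 gene identifiers counted.

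Messenger RNA was sequenced in bulk from OT-1 CD8+ T cells of C57BL/6 background, with 4 GC7-treated and 4 mock-treated libraries. The donors were Rag-1KO mice of 5 to 12 weeks of age with a transgenic T cell receptor for SIINFEKL, an ovalbumin peptide, so that nearly every T cell has this single specificity. In both groups, lymph node cells were activated with 100 nM SIINFEKL for 2 days and then grown in 20 ng/mL recombinant human IL-2 for 2 days. During the IL-2 culture the GC7 group received 10 µM GC7 and the mock group an equal volume of the acetic acid vehicle. GC7 is a spermidine analogue that blocks deoxyhypusine synthase (DHPS) and so the hypusination of the translation factor eIF5a. The study's authors describe effects of GC7 beyond eIF5a, so a difference here belongs to the drug and cannot be assigned to eIF5a. In bulk RNA, fewer cells of a type and less RNA per cell cannot be told apart. The comparison asks how mRNAs of the pathway differ between cells with and without this drug.

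HIF is a pair of proteins, an oxygen-labile α subunit and the stable partner ARNT. In the presence of oxygen the EGLN enzymes hydroxylate prolines of the α subunit, the VHL ubiquitin ligase recognises the hydroxylated protein, and the proteasome degrades it. Control of HIF-1α is thus largely at the level of protein, which mRNA counts do not show. Activated T cells accumulate HIF-1α also at normal oxygen through T cell receptor, IL-2 and mTOR signals, and its targets there include genes of glycolysis and effector function. HIF binds DNA at a short core of letters, ACGTG or GCGTG. *Egln3* and *Egln1* are themselves known HIF targets, which makes them both regulators and readouts of the pathway.

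The promoters of 5 genes are printed to show the bases upstream of genes whose levels differed most in direction or size among those with a window. Windows of 250 bases before to 50 after a start site came from RefSeq (GRCm38.p6) and covered 8 of the 10 genes. The lines give the bases before the start site and outside annotated exons, 5′ to 3′ on the strand of the gene, with ACGTG or GCGTG on either strand in capitals. The printed stretches are chr7:138909520-138909756 (minus strand) for *Bnip3*, chr10:59323046-59323295 (plus) for *P4ha1* and chr12:54203875-54204124 (minus) for *Egln3*. They are chr8:124949325-124949504 (minus) for *Egln1* and chr12:73907617-73907866 (plus) for *Hif1a*, whose RefSeq start lies inside the Ensembl gene.
Bnip3: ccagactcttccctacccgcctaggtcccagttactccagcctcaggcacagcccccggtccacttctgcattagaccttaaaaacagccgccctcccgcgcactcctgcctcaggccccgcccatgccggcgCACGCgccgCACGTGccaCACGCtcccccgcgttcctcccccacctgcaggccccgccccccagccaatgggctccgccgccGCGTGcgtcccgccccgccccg
P4ha1: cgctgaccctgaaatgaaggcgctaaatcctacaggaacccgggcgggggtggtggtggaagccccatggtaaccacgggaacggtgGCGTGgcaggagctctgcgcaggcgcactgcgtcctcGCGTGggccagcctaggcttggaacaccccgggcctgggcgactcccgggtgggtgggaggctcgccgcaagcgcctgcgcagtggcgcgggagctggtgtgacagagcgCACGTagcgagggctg
Egln3: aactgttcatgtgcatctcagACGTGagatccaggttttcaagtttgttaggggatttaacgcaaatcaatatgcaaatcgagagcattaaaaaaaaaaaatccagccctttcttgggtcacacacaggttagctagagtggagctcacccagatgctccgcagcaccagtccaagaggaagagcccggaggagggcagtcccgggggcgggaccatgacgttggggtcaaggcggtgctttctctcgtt
Egln1: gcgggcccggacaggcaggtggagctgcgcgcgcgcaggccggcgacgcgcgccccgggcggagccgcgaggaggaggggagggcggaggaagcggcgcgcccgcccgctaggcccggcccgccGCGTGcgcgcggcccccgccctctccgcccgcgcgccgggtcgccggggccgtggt
Hif1a: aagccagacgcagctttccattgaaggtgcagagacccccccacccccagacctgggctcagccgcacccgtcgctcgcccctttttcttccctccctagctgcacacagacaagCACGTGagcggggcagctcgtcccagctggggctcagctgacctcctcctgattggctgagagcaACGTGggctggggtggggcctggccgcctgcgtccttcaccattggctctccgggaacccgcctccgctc
The *Bnip3* promoter is the densest of these, with a palindromic CACGTG whose first core base lies 108 bases before the start site (position -108), flanked by GCGTG on the opposite strand at -117 and -99 and followed by 1 more at -35. The *P4ha1* promoter holds cores at -163, -126 and -16, while *Egln3* has 1, at -229. *Egln1* holds cores at -126 and at -68, the latter in annotated exon and so not printed. *Hif1a* has a CACGTG, with cores at -135 and -134 on the opposite strands, and a further core at -70.

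With overlapping matches on both strands counted as 1 place, 8 of the 10 windows of these 8 genes (80.0%) held at least 1 core, against 63.5% of 10627 windows of tested genes and 43.8% of all 32851 windows of the same 300 bases. At least 2 places were found in 6 of the 10 windows, against 31.4% of windows of tested genes. Both counts include a second window of *Vegfa*, which lies inside the gene. There 218 of the 250 bases before the start site are annotated exon. CACGTG, which contains ACGTG on both strands, was in 3 windows, those of *Egln2*, *Bnip3* and *Hif1a*, and in 10.3% of windows of tested genes. The windows of *Vhl* and the main one of *Vegfa* had no core, which says only that these letters are not in these windows. Among windows of other tested HIF targets, 27 of 36 (75.0%) had a core. A core is a description of the sequence, and no binding was measured.

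Mock libraries held 20045041 to 25284730 counts and GC7 libraries 17528776 to 23449164, a difference within the spread between libraries (two-sided exact permutation test, p = 0.429, smallest possible p = 0.0286). Levels are in CPM, the counts of a gene relative to the depth of its library, scaled with TMM factors, which align the bulk of genes between libraries. Called means an adjusted p under 0.01 in edgeR's quasi-likelihood test with Benjamini-Hochberg adjustment over all tested genes, and p-values measure the spread between these 4 biological replicates a group. By this rule GC7-treated cells had 2635 genes (23.5%) lower and 2579 (23.0%) higher, and with scaling by library totals in place of TMM 2056 were lower and 3346 higher. Markers fitted the label of CD8 T cells, with all 9 of the list expressed and *Cd4* at a mean of 0.201 CPM in mock cells. The summed CPM of that list was 7280 to 8690 in mock and 4920 to 6510 in GC7-treated cells. Its most abundant gene was *Gzmb*, with means of 4438 and 2907 CPM. Of its 9 genes 6 (66.7%) were called lower, *Cd3e*, *Cd3g*, *Trac*, *Lck*, *Gzmb* and *Prf1*, and 1 higher, *Cd8a*, at 703 and 978 CPM. The B cell list summed to 460 to 574 and 269 to 294, almost all of it *Ighm*, with *Ms4a1* and *Pax5* at 0 in every library. The stroma list summed to 51.6 to 56.3 and 30.5 to 32.4, nearly all *Pecam1*, with *Cdh5* and *Col3a1* at 0. The dendritic cell list summed to 4.19 to 5.91 and 0.446 to 1.14, with *Clec9a* and *Siglech* at 0. Most of that sum was *Xcr1*, with means of 5.14 and 0.631 CPM, which passed the filter only through the mock libraries. The CD4 T cell, NK cell and red cell lists stayed at or under 2.43 CPM, and the myeloid list at 10.8 or under, with *S100a8* and *S100a9* at 0. Mitochondrially encoded genes took 1.83% to 1.94% of counts in mock and 0.194% to 0.225% in GC7-treated cells. The part of these lists in the values below was not tested.

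Of the 10 HIF pathway genes, 9 were called lower in GC7-treated cells, beside 23.5% of all tested genes, and none was called higher, beside 23.0%. *Hif1a* was the exception. A difference of more than 2-fold was found in 5 genes, *Egln1*, *Egln3*, *Ndrg1*, *Bnip3* and *Bnip3l*, beside 5.31% of tested genes called lower by more than 2-fold and 3.17% called higher by more than 2-fold. The levels of the groups did not overlap for any of the 10. In 9 every GC7-treated library was below every mock library, as for 27.5% of tested genes, and in *Hif1a* every one was above, as for 28.1%. Since the genes were selected with this contrast known, nothing is read from these counts. The median log2 fold change (GC7 minus mock) was -1.15 over the 10 genes, -0.37 over the regulators, -1.58 over the targets and 0.02 over all tested genes.

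**Figure D1:**
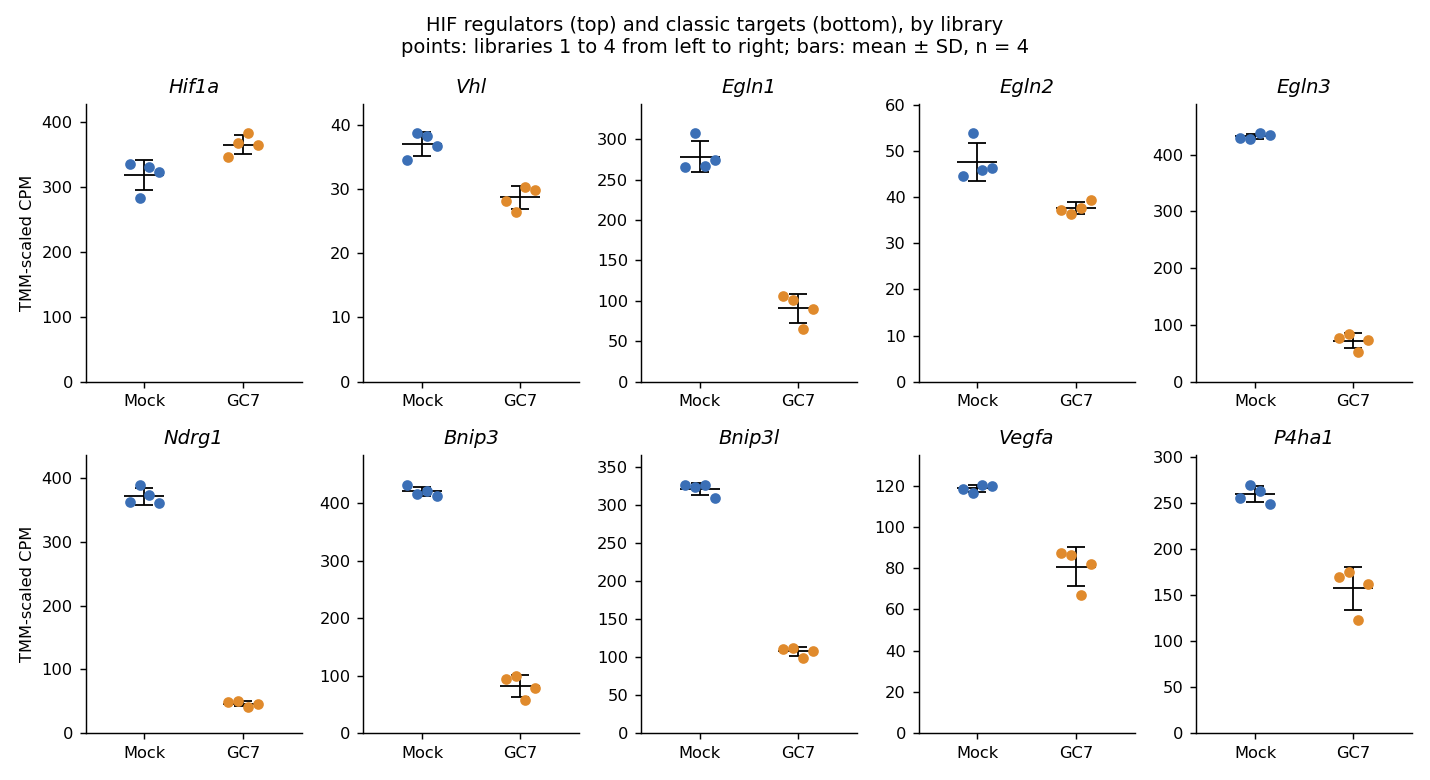
TMM-scaled CPM (y axes, each from 0) of the 5 HIF regulators (top) and the 5 classic targets (bottom) in mock-treated and GC7-treated libraries, with points for libraries 1 to 4 from left to right and bars for mean ± SD (n = 4). *Hif1a* lies slightly higher and all other genes lower in GC7-treated cells, with GC7 library 3 the lowest GC7 point for 7 of the 10.

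*Hif1a* (ENSMUSG00000021109, chr12:73901375-73947530, plus strand) encodes the oxygen-labile subunit that T cells chiefly use. Its level was 334, 283, 331 and 323 CPM in mock libraries 1 to 4 and 346, 367, 382 and 364 CPM in GC7 libraries 1 to 4. Mock library 2 was the lowest of all 8, and the lowest GC7 library lay above the highest mock library by a small margin. The means were 318 ± 23.6 CPM (SD, n = 4) and 365 ± 14.9 CPM, a log2 fold change of 0.20 (SE 0.0679) that was not called. The mRNA of this subunit was not lower in GC7-treated cells, and HIF-1α protein was not analysed here. With library totals in place of TMM the log2 fold change was 0.29 and past the threshold. An antisense gene, Gm15283, shares 330 exonic bases (5.6%) with *Hif1a* on the opposite strand and moved the other way, from 10.3 ± 1.49 to 5.02 ± 0.725 CPM. The strand setting of the counting is not given in the sources used here, so reads of this stretch may belong to either gene.

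The 5 genes nearest to *Hif1a* were found by Euclidean distance of centred log2 CPM over the 8 libraries among 10191 tested protein-coding genes. These were *Uhrf2* (distance 0.0884), *Ktn1* (0.0941), *Hif1an* (0.0985), *Ganab* (0.100) and *Lrrc40* (0.101). One of them, *Hif1an*, encodes FIH, the asparagine hydroxylase that limits HIF activity, and had 47.8 ± 4.42 CPM in mock and 55.6 ± 2.63 CPM in GC7-treated cells. The likeness is a description of level patterns over 8 libraries of the same groups.

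*Vhl* (ENSMUSG00000033933, chr6:113623959-113631633, plus strand) encodes the substrate receptor of the ligase that marks hydroxylated HIF-1α for degradation. It had 34.6, 38.7, 38.4 and 36.8 CPM in the mock libraries and 28.2, 26.5, 30.4 and 29.9 CPM in the GC7 libraries. All 4 GC7 values were under the lowest mock value, by a modest step. The means of 37.1 ± 1.90 and 28.8 ± 1.75 CPM gave a log2 fold change of -0.37 (SE 0.0707), or 77.5% of the mock level. Per kilobase of exon, *Vhl* was at 0.231 ± 0.0275 of the level of *Hif1a* in mock and 0.155 ± 0.00882 in GC7-treated cells.

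The EGLN genes encode the prolyl hydroxylases, with *Egln1* (PHD2) the main oxygen sensor in most cells, and the 3 did not move by equal amounts. *Egln1* (ENSMUSG00000031987, chr8:124908587-124949324, minus strand) had 266, 307, 266 and 275 CPM in mock and 105, 101, 65.3 and 90.3 CPM in GC7 libraries. No GC7 library came near the mock range, and GC7 library 3 stood lowest. The means were 278 ± 19.6 and 90.5 ± 18.0 CPM, a log2 fold change of -1.62 (SE 0.124).

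*Egln2* (ENSMUSG00000058709, chr7:27158658-27166802, minus strand), which encodes PHD1, was weakly expressed and differed little. Its values were 44.7, 53.9, 45.9 and 46.5 CPM in mock and 37.3, 36.3, 37.6 and 39.4 CPM in GC7 libraries. Mock library 2 was above the other mock libraries, and the GC7 libraries were close together below them. The log2 fold change was -0.34 (SE 0.0729), with means of 47.7 ± 4.19 and 37.7 ± 1.30 CPM.

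*Egln3* (ENSMUSG00000035105, chr12:54178981-54203860, minus strand) encodes PHD3, the most hypoxia-inducible of the prolyl hydroxylases in many cell types. It was at 429.9, 427, 438 and 435 CPM in mock libraries, which lay very close together, and at 77.55, 84.3, 52.85 and 72.8 CPM in GC7 libraries. The groups were thus far apart, with GC7 library 3 again lowest. The means were 432 ± 4.83 and 71.9 ± 13.6 CPM, a log2 fold change of -2.59 (SE 0.117) or a level 6.02-fold lower. Its promoter window held a single core, while the windows at the 2 RefSeq starts of *Egln2* held 5 places and 1.

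Summed per kilobase of exon, the 3 hydroxylase mRNAs were at 256.9 ± 5.83 CPM per kb in mock and 65.6 ± 9.85 CPM per kb in GC7-treated cells. The composition of the sum differed as well. *Egln3* made up 63.3% ± 1.86 of it in mock and 41.0% ± 2.03 in GC7-treated cells, while *Egln1* made up 30.1% ± 1.44 and 38.1% ± 2.29. *Egln2* went from 6.63% ± 0.427 to 20.9% ± 3.75, its share being largest in GC7 library 3, at 26.1%. The ratio of *Egln3* to *Hif1a* per kilobase was 3.02 ± 0.217 in mock and 0.439 ± 0.0929 in GC7-treated cells.

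**Figure D2:**
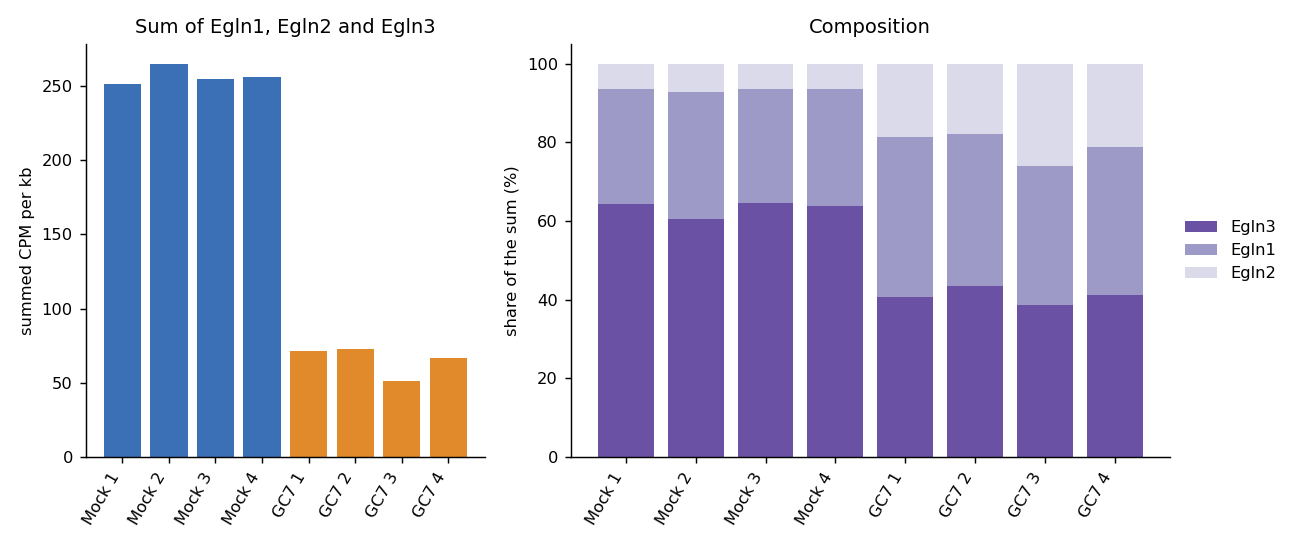
Sum of *Egln1*, *Egln2* and *Egln3* in CPM per kb of exon for each library (left, bars from 0), and the share of each gene in that sum in percent (right). The sum ranges over 251 to 265 CPM per kb for mock and 51.5 to 72.8 for GC7, where the share of *Egln3* is 60.5% to 64.5% and 38.6% to 43.5%.

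Of the targets, *Ndrg1* (ENSMUSG00000005125, chr15:66929318-66969640, minus strand) differed most. It encodes a stress-responsive cytoplasmic protein that is among the most consistently hypoxia-induced genes. Mock libraries had 363, 389.6, 374 and 360.5 CPM and GC7 libraries 48.2, 49.8, 40.35 and 45.2 CPM. The GC7 libraries were close together, far under every mock library. The means were 372 ± 13.2 and 45.9 ± 4.16 CPM, a log2 fold change of -3.02 (SE 0.0756) and a level 8.10-fold lower. A lower log2 fold change was found in 0.688% of tested genes.

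*Bnip3* (ENSMUSG00000078566, chr7:138890836-138909519, minus strand) encodes an outer mitochondrial membrane protein that acts as a receptor for mitophagy. Its values were 432, 417, 421 and 414 CPM in mock and 93.6, 99.3, 56.5 and 78.6 CPM in GC7 libraries. The GC7 libraries were all low but varied most of all 10 genes, with a coefficient of variation of 23.3% against 1.94% in mock. With means of 421 ± 8.15 and 82.0 ± 19.1 CPM, the log2 fold change was -2.36 (SE 0.139) and the level 5.13-fold lower. Its pseudogene Gm6532, 98.6% identical over 559 bases, was at 35.3 ± 3.55 and 7.11 ± 2.35 CPM, so the counting could have split reads between the copies. The sum of *Bnip3*, Gm6532 and AC160336.1 was 5.13-fold lower too.

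*Bnip3l* (ENSMUSG00000022051, chr14:66985239-67008877, minus strand) encodes NIX, the related mitophagy receptor. Mock libraries had 326, 323, 326 and 309.5 CPM and GC7 libraries 111, 112, 98.4 and 107 CPM. Both groups were tight, and mock library 4 was a little under the other mock libraries. The means were 321 ± 7.96 and 107 ± 6.24 CPM, a log2 fold change of -1.58 (SE 0.0613) and a level 2.996-fold lower. Together with its near-identical pseudogene Bnip3l-ps (99.4% over 1131 bases) the level was 2.98-fold lower. Per kilobase, *Bnip3* exceeded *Bnip3l* by a ratio of 2.23 ± 0.0406 in mock and 1.29 ± 0.236 in GC7-treated cells, and in GC7 library 3 the ratio was 0.979.

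*Vegfa* (ENSMUSG00000023951, chr17:46016993-46032369, minus strand), the angiogenic growth factor, differed least of the targets. It was at 118, 116.5, 120.5 and 119.7 CPM in mock and at 87.3, 86.3, 67.1 and 82.1 CPM in GC7 libraries. The mock libraries were nearly equal and the GC7 libraries were all below them, with library 3 lowest. The means of 119 ± 1.75 and 80.7 ± 9.36 CPM gave a log2 fold change of -0.56 (SE 0.0791), or 67.9% of the mock level.

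*P4ha1* (ENSMUSG00000019916, chr10:59323296-59373304, plus strand) encodes a catalytic subunit of collagen prolyl 4-hydroxylase, an enzyme distinct from the EGLN sensors that uses the same cofactors. Its values were 256, 270.0, 263.5 and 249.6 CPM in mock and 170.0, 175, 123 and 162.5 CPM in GC7 libraries. The groups were separate, and GC7 library 3 was well under the other 3. The log2 fold change was -0.72 (SE 0.0957), with means of 259.8 ± 8.90 and 158 ± 23.5 CPM, or 60.7% of the mock level.

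Compared per kilobase of exon, the order of the levels also changed. In mock cells *Bnip3* was highest at 185.8 ± 3.60 CPM per kb, followed by *Egln3* at 162 ± 1.81. Next came *Bnip3l* (83.3) and *Egln1* (77.5), whose ranges overlapped, then *P4ha1* (63.1), then *Ndrg1* (56.4) and *Hif1a* (53.9), whose ranges overlapped, and last *Vegfa* (27.7), *Egln2* (17.1) and *Vhl* (12.4). In GC7-treated cells *Hif1a* was highest at 61.9 ± 2.52 CPM per kb, above the range of every other gene of the 10. From *P4ha1* (38.3) through *Bnip3* (36.2), *Bnip3l* (27.8), *Egln3* (27.0), *Egln1* (25.2) and *Vegfa* (18.8), each range overlapped that of its neighbour. *Egln2* (13.5), *Vhl* (9.59) and *Ndrg1* (6.96) came last without overlap, so that *Ndrg1* moved from rank 6 to rank 10.

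The GC7 libraries differed among themselves along these genes. GC7 library 3 was the lowest GC7 library for 7 of the 10, all 5 targets with *Egln1* and *Egln3*, beside 35.1% of all tested genes and 43.2% of those called lower. Its median deviation from the group mean over the 10 genes was -0.22 on the log2 scale. Over all tested genes it was 0.0037, but TMM scaling keeps that median near 0 in every library, so it is no measure of how unusual -0.22 is. The other 3 GC7 libraries had median deviations of 0.099, 0.11 and 0.03. The same library was lowest for 17 of 29 other HIF targets and for 18 of 21 glycolytic ones. Outside the HIF lists it was lowest too for *Gzmb* (1901 CPM) and *Prf1* (19.1 CPM), while for *Cd3g* (504 CPM) it was the highest GC7 library. The library also had the fewest counts, 17528776. Without it, all 7 HIF genes for which it was lowest had log2 fold changes closer to 0, as at -2.21 for *Bnip3*, -2.46 for *Egln3* and -1.49 for *Egln1*. This follows from the library being lowest for genes that were lower in the GC7 group, and only the sizes are informative. What sets the library apart was not tested.

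**Figure D3:**
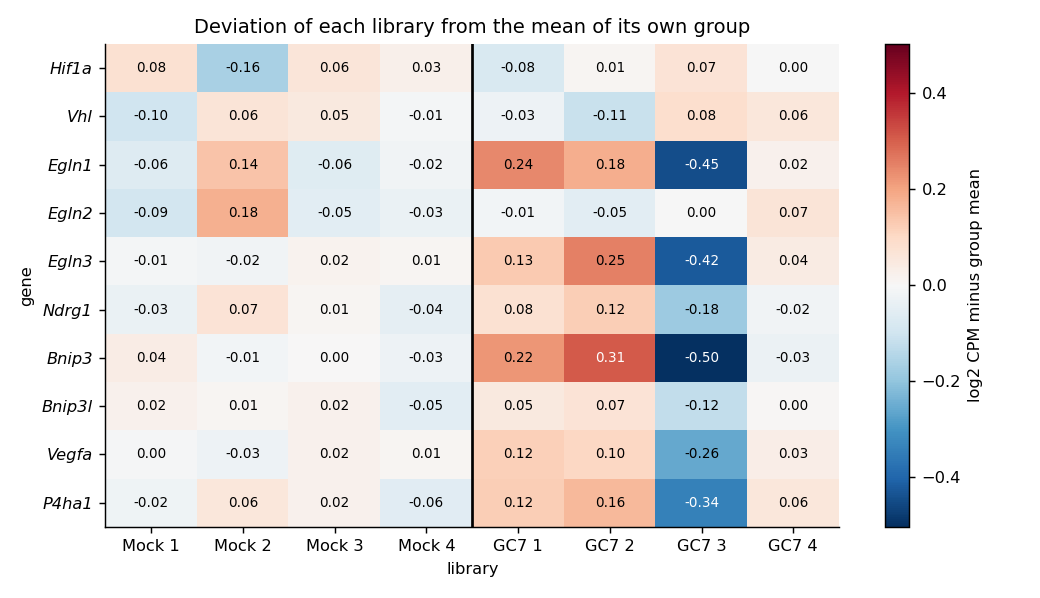
Deviation of each library from the mean of its own group in log2 CPM, for the 10 genes (rows) in 4 mock and 4 GC7 libraries (columns), with the value in each cell. The strongest deviations are in GC7 library 3, at -0.50 for *Bnip3*, -0.45 for *Egln1* and -0.42 for *Egln3*, while *Hif1a*, *Vhl* and *Egln2* do not follow them.

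The rest of the HIF machinery and further targets were described with lists of genes. These lists were chosen with earlier results of these data known, and their counts are set beside 23.5% lower and 23.0% higher over all tested genes. Of 5 other HIF subunit genes 4 passed the filter. *Epas1*, which encodes HIF-2α, was at 5.55 ± 0.789 CPM in mock and 1.30 ± 0.452 CPM in GC7-treated cells, and *Hif3a* at 4.66 ± 1.26 and 1.64 ± 0.266 CPM. Both were at low levels and passed the filter only through the mock libraries, so that they had to differ and their 2 calls count for nothing here. Of the 2 genes above the minimum in all 8 libraries, none was called (0 lower and 0 higher). *Arnt*, the shared partner, was at 68.2 ± 7.03 and 59.0 ± 2.37 CPM and was not called (edgeR, adjusted p = 0.0366).

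Among 9 other genes of oxygen sensing and HIF-1α turnover, 2 were lower and 1 higher, with a median log2 fold change of 0.13. *Rbx1*, the RING subunit of the VHL ligase, fell by 0.43 on the log2 scale (edgeR, adjusted p = 3.25e-04), and *Siah2*, a ligase for the prolyl hydroxylases themselves, fell by 0.32 (adjusted p = 0.00892). *P4htm*, a transmembrane prolyl hydroxylase that can act on HIF-1α, rose by 0.51 from a low level (edgeR, adjusted p = 0.0016). *Cul2*, *Elob* and *Eloc*, the other subunits of the VHL ligase, had log2 fold changes of 0.05, 0.13 and 0.10 and were not called. The call for *Siah2* was lost without any single one of 7 libraries, under scaling by library totals and in a fit with replicate blocks.

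Among coactivators and their competitors, 5 of 7 were tested and 2 were lower. *Cited2*, a HIF target whose protein competes with HIF for EP300, fell from 111 ± 7.16 to 40.3 ± 4.98 CPM (edgeR, log2 fold change -1.46, adjusted p = 5.19e-08). *Ep300* itself fell by 0.58 on the log2 scale (edgeR, adjusted p = 0.00269), but in mock library 2 it was at 107 CPM, within the range of the GC7 libraries, against 171 to 177 in the other mock libraries. This call was lost with library totals, without GC7 library 3 and without GC7 library 4. *Crebbp*, its paralogue, was at 48.8 ± 7.29 and 57.8 ± 4.68 CPM and was not called.

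Of 39 further HIF targets outside glycolysis, 29 were tested, and 18 (62.1%) were lower, 8 of them by more than 2-fold, with a median log2 fold change of -0.78. The 39 include *Cited2* from the coactivators above and *P4ha2*, *Plod1* and *Plod2*, which are counted again with the collagen-modifying hydroxylases, so these lists are not separate. The 5 with the largest differences were *Ankrd37*, *P4ha2*, *Ero1a*, *Ak4* and *Mxi1*, with log2 fold changes from -2.26 to -1.56 (edgeR, adjusted p at most 1.21e-06). *Ero1a*, the endoplasmic reticulum oxidase and the most abundant of these, was at 1176, 949, 1160 and 1083 CPM in mock and 309, 339, 206 and 267 CPM in GC7 libraries. *Mxi1*, a MYC antagonist, fell from 133 ± 4.0 to 45.2 ± 1.76 CPM. Not every target moved this way. *Car12*, a carbonic anhydrase, rose from 12.7 ± 2.32 to 22.6 ± 3.67 CPM (edgeR, log2 fold change 0.84, adjusted p = 3e-04). *Bhlhe40*, *Mif*, *Tfrc* and *Wsb1*, all well expressed, had log2 fold changes of -0.04, -0.12, -0.22 and 0.14 and were not called. Another 10, among them *Car9*, *Adm*, *Lox* and *Epo*, did not pass the filter.

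**Figure D4:**
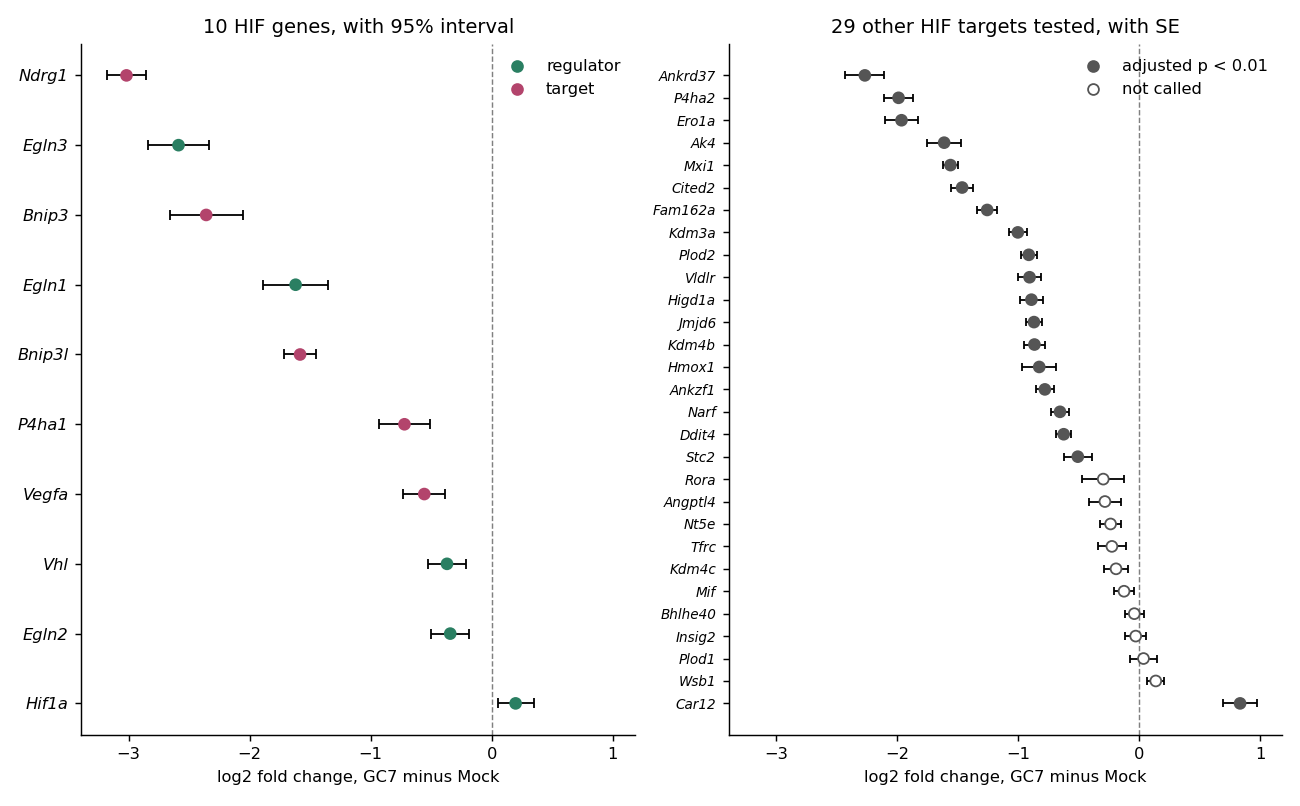
Log2 fold changes (x axis, GC7 minus mock) of the 10 HIF genes with 95% intervals (left, coloured by role) and of 29 other HIF targets tested, with standard errors (right, filled where the adjusted p was under 0.01). The 10 genes span -3.02 (*Ndrg1*) to 0.20 (*Hif1a*), and of the other targets 18 are lower and *Car12* is higher.

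Of the 21 glycolytic HIF targets, all of them tested, 20 were lower (95.2%), 15 by more than 2-fold, with a median log2 fold change of -1.31. *Aldoc* (-3.23), the lactate exporter *Slc16a3* (-2.23) and the glucose transporter *Slc2a3* (-1.84) differed most, followed by *Tpi1* (-1.46) and *Pfkl* (-1.37), all with an adjusted p of 6.37e-06 or under in edgeR. *Eno2*, expressed at 4.05 ± 0.480 and 4.73 ± 1.87 CPM, was the exception and was not called. *Pfkfb4* was called lower at a log2 fold change of -0.41 (edgeR, adjusted p = 0.00945). That call was lost with library totals and without any single library other than mock library 2. The 5 selected non-glycolytic targets had a median log2 fold change of -1.58, and no test compares the lists.

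**Figure D5:**
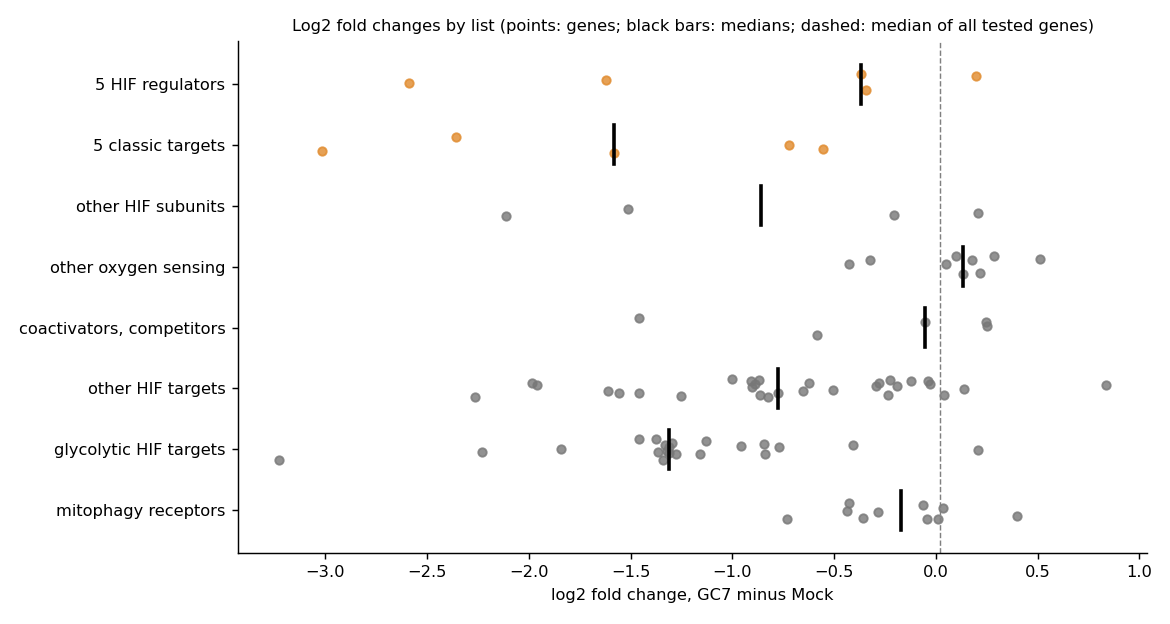
Log2 fold changes (x axis, GC7 minus mock) of single genes (points) in 8 lists (rows), with black bars at the list medians and a dashed line at the median of all tested genes, 0.02. The medians are -0.37 for the regulators, -1.58 for the classic targets, 0.13 for other oxygen sensing genes, -0.78 for other HIF targets and -1.31 for glycolytic ones.

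Genes related to the targets by family or function differed in part. Among mitophagy genes other than *Bnip3* and *Bnip3l*, 10 of 11 were tested, 3 were lower and 1 higher, with a median log2 fold change of -0.17. *Pink1*, the kinase of the Parkin route, fell by 0.73 on the log2 scale (edgeR, adjusted p = 1.28e-05), *Sqstm1* by 0.44 and *Fkbp8* by 0.42, while *Bcl2l13* rose by 0.40 (adjusted p = 3.92e-04). *Fundc1*, the third hypoxia-linked receptor of mitochondria, was at 21.4 ± 1.15 and 21.5 ± 1.36 CPM.

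The paralogues of *Ndrg1* moved in different directions. *Ndrg2* fell from 92.7 ± 5.41 to 27.1 ± 1.09 CPM (edgeR, log2 fold change -1.78, adjusted p = 7.72e-10), and *Ndrg3* rose from 53.1 ± 1.87 to 69.8 ± 5.58 CPM (log2 fold change 0.39, adjusted p = 3.61e-04). *Ndrg4*, at 4.62 ± 0.662 and 3.15 ± 0.613 CPM, was not called (adjusted p = 0.0111). In the *Vegfa* family, *Vegfb* fell by 1.05 on the log2 scale (edgeR, adjusted p = 1.19e-06) and the coreceptor *Nrp1* rose by 0.89 (adjusted p = 4.03e-04). The other 7 genes, which include the receptors *Flt1*, *Kdr* and *Flt4*, did not pass the filter.

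Of the collagen-modifying hydroxylases beside *P4ha1*, 4 of 5 tested were lower, of which *P4ha2* and *Plod2* were already counted among the further targets. *P4ha2* fell from 81.2 ± 4.37 to 20.4 ± 4.10 CPM (edgeR, log2 fold change -1.99, adjusted p = 4.79e-08), beside -0.72 for *P4ha1*. Per kilobase, *P4ha1* made up 82.9% ± 1.02 of the sum of both in mock and 92.2% ± 0.523 in GC7-treated cells. *P4hb*, the shared β subunit, fell by 0.70 on the log2 scale, *Plod2* by 0.91 and *Plod3* by 0.52 (edgeR, adjusted p at most 1.75e-05), while *Plod1* was at 0.04 and was not called.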

How the data were processed

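Bulk mRNA libraries from 4 GC7-treated and 4 mock-treated cultures were grouped by the sample labels, and all 8 were used. The values deposited by the authors are unnormalised counts per Ensembl gene, with a separate table for each library. Per the study's methods, the authors trimmed paired-end reads (Cutadapt version 2.3), aligned them (STAR version 2.7.1a, GRCm38) and counted them over Ensembl 96 (featureCounts, Rsubread version 1.6.4). The strand setting and the handling of multi-mapping reads are not given in the sources used here. All 55536 identifiers matched the annotation.

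A gene was tested when at least 4 libraries exceeded 3 CPM (52.6 to 75.9 counts). The test was edgeR's quasi-likelihood F test (version 4.0.16, R version 4.3.3) with TMM factors, group as the only term and Benjamini-Hochberg adjustment. Values are TMM-scaled CPM as mean ± SD, divided by exonic length where genes are compared. The fit was tested on simulated data with 10907 genes, of which 200 changed, and it recovered 198 with 5 false calls. In the libraries themselves 2635 genes were called lower and 2579 higher, and recovery with so many differing genes was not tested. Near-identical copies (at least 200 bases, 90% identity) came from BLAST (version 2.17.0).

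The 10 genes and all lists were chosen with earlier results of these data known. All 10 are named, with the 5 largest called differences of lists longer than 12 genes and the 5 genes nearest to *Hif1a*. In lists of 12 or fewer any gene could be named, and not all of them are. *Pfkfb4* was named for its lost calls. *Car12*, *Eno2*, *Bhlhe40*, *Mif*, *Tfrc*, *Wsb1* and the targets that did not pass the filter were named as exceptions after their values were seen. The alternatives were scaling by RLE factors, by library totals or by TMM leaving out mitochondrially encoded genes, the tests DESeq2 (version 1.42.0) and limma-voom (version 3.58.1), the filters none, filterByExpr and, added after seeing the data, all 8 libraries above 3 CPM, a replicate block, a threshold of 0.05 in place of 0.01, a prior count of 0.5 in place of 2, motif windows ending at the start site, and each library left out. Tables and figures were made with Python (version 3.11.15), numpy (2.4.6), pandas (2.3.3), scipy (1.17.1) and matplotlib (3.10.9).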

Additional observations from a re-analysis of the deposited data

Results flagged for a closer look

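In groups of 4 libraries, Dixon's ratio, the gap of an extreme library to its nearest neighbour over the range of the group, was compared with its 95% critical value for groups of this size. Over 94 tested genes, the 10 HIF genes and the pathway lists without the cell type markers, this was 188 groups, and 20 had a library apart, where chance gives about 1 in 20. Of the 10 HIF genes 1 was among them, *Bnip3l*, with mock library 4 below the other mock libraries (0.831).

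Mock library 2 accounted for 13 of the 20. It was the lowest mock library for *Arnt* (0.915), *Ep300* (0.904), *Ncoa1* (0.923), *Ncoa2* (0.943), *Plod2* (0.881), *Rora* (0.836) and *Pfkfb3* (0.862), and the highest for *Higd1a* (0.901), *Mif* (0.922), *Fam162a* (0.842), *Gapdh* (0.883), *Eno1* (0.838) and *Pkm* (0.953). Mock library 3 was the highest for *Optn* (0.871). GC7 library 3 was the highest for *Eloc* (0.871) and *Nbr1* (0.935) and the lowest for *Gapdh* (0.852) and *Pgk1* (0.931), and GC7 library 4 the lowest for *Ncoa2* (0.834). GC7 library 3, lowest for 7 of the 10 HIF genes, did not pass the critical value for any of them.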

How the results depend on the processing

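Over the 10 HIF genes, 178 of 180 values under an alternative kept their direction and their side of the threshold, and none reversed. The other 2 were *Hif1a*, which was called higher with library totals and with a threshold of 0.05, so that 1 of the 10 genes was higher. The counts of 9 genes called lower and 5 past 2-fold were found under each of the 18 alternatives to the fit. A prior count of 0.5, which bears only on mean log2 CPM, changed the direction of none of the 10 differences, and with only the bases before the start site 8 of the 10 windows of HIF genes held a core, against 57.4% of windows of tested genes. Of 980 values for 55 other called genes of the pathway lists, cell type markers aside, 959 kept their call and 21 did not (9 for *Siah2*, 8 for *Pfkfb4*, 3 for *Ep300*, 1 for *Stc2*).

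With no filter, 1189 genes were lower and 773 higher by more than 2-fold, and with filterByExpr 1013 and 601, while CPM above 3 in all 8 libraries gave 222 higher by more than 2-fold. HIF subunits called lower were 0 with that filter, and 0 to 2 without single libraries, since *Epas1* and *Hif3a* need 4 mock libraries to pass. Oxygen sensing genes called lower were 1 with library totals and with the replicate block, and 1 to 2 without single libraries, and those called higher were 3 with library totals and with a threshold of 0.05, and 1 to 3 without single libraries (3 without mock library 2). Coactivators called lower were 1 with library totals and 1 to 2 without single libraries (1 without GC7 library 3 or 4, through *Ep300*), and 1 was called higher with no filter. The cause of these moves was not tested beyond the filters themselves.

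Whether mock and GC7 libraries with the same replicate number share a donor is not given in the sources used here. Correlations of same-numbered deviations were 0.272, -0.116, 0.202 and -0.183. Those of differently numbered libraries ranged from -0.31 to 0.416, so these values do not decide whether the libraries are paired. With the replicate block, 2485 genes were lower and 2382 higher, and 9 of the 10 HIF genes were lower. A change in total mRNA per cell is not visible after scaling, and protein was not analysed here.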
